A study of Mus musculus with 6 samples.

Results

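The genes examined here encode the IκB kinases, kinases related to them, and enzymes and adaptors of the same pathway. The list has 10 genes: the IKK subunits Chuk, Ikbkb and Ikbkg, the related kinases Ikbke and Tbk1, the MAP3 kinases Map3k7, Map3k8 and Map3k14, and the adaptor pair Bcl10 and Malt1. All probe sets to which the array's annotation gives 1 of these symbols were taken, which made 30 probe sets for 9 of the 10 genes, out of 18193 genes named on the array. No probe set is listed for Chuk (IKKα), whose expression was not analysed here. The cells were mouse pre-B lines that the v-Abl oncogene had transformed, each derived independently from WT mice carrying an Eμ-Bcl2 transgene, so that all groups share the transforming kinase and the transgene product that counters apoptosis. All cells were held in 3 μM STI-571 (imatinib), an inhibitor of the Abl kinase, for 48 hours, which arrests them in G1. One culture of each of the 3 lines was mock-irradiated (0 Gy) and one received 1 Gy of γ-rays at 0.72 Gy per minute, and RNA was taken 2 hours later. Each group therefore held 3 arrays, 1 per line, and the comparison asks which transcripts of the kinase machinery differ after genotoxic DNA breaks.

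In resting cells, NF-κB dimers are held in the cytoplasm by IκB proteins. The IKK complex, made of the kinases IKKα and IKKβ and the regulatory subunit NEMO (the product of Ikbkg), phosphorylates IκB and so marks it for destruction. Kinases such as TAK1 (Map3k7) activate the complex, NIK (Map3k14) acts through IKKα in the noncanonical branch, and the BCL10 and MALT1 proteins carry the signal from antigen receptors. After DNA breaks, the ATM kinase and modified NEMO carry a signal from the nucleus to IKK, and NF-κB activation has long been known as a part of the response of lymphoid cells to radiation.

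Of the 30 probe sets, 28 reached a signal of 100 on at least 1 array and were tested. The 2 left out were an Ikbkb set (1454184_a_at, signals of 13.8 to 60.0) and a Map3k7 set (1447801_x_at, 15.6 to 40.2). A signal is the linear, scaled brightness of a probe set in arbitrary units, and a change is given as the difference of mean log2 signals, 1 Gy minus 0 Gy. Changes were called at an adjusted p under 0.05 from limma, fitted over 21762 probe sets. The median signal of an array was 51.6 to 59.4 without controls, and with 3 arrays a group the precision of each value is limited by their number. Markers of pre-B cells were present on all arrays (11 of 11 measured at 100 or above). Their summed signal was 109228 to 116301 at 0 Gy and 82741 to 111542 at 1 Gy. All 6 T cell, 4 erythroid and 5 stromal markers measured stayed under 100. Of 6 myeloid markers, Itgam alone passed 100 and the defining genes Cd14, Lyz2, Mpo and Elane stayed at or under 52.1, while the summed signal of the list was 255 to 330.0 at 0 Gy and 359 to 472 at 1 Gy. The summed plasma cell markers, 3 of 4 of which passed 100, went from 5247 to 6493 down to 3279 to 5068. The β-actin control probes, which report on how intact the RNA is, had a 3′ to 5′ signal ratio of 1.45 ± 0.051 (SD, n = 3) at 0 Gy and 1.32 ± 0.057 at 1 Gy. The part of these shifts in the results was not tested. In such bulk RNA, fewer cells of a type and less RNA per cell cannot be told apart.

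Map3k8 and Bcl10 were the genes of the list with a probe set called higher. Ikbke and Map3k7 were also higher in all lines at their brightest probe sets, but missed the threshold (adjusted p = 0.0721 and 0.0670 from limma). Ikbkg was lower in all lines at its brightest probe set and missed the threshold as narrowly (adjusted p = 0.0715 from limma). By limma, 3 of the 28 probe sets were called (4.48% of all probe sets), and all 3 were higher after 1 Gy, where 1.93% of all probe sets were called higher. None was called lower, against 2.55% of all, although the unadjusted p was under 0.05 for 9 sets with higher and 3 with lower values (12 of 28, beside 23.0% of all). At the brightest probe set of each gene, 1 of 9 genes was called (5.31% of all genes), with 1 higher (2.11%) and 0 lower (3.20%), and at an unadjusted p under 0.05 the numbers were 4 and 1 (5 of 9, beside 25.0% of all). The irradiated arrays lay wholly above the mock arrays in 10 of the 28 probe sets (12.8% of all) and wholly below in 3 (17.1% of all). All 3 lines were higher after irradiation in 15 sets (24.7% of all) and lower in 6 (34.5% of all). The median log2 change of the 28 was 0.17, beside -0.06 over all probe sets tested. With the cell line as a block, which removes the differences between lines, 12 were called (18.3% of all), 10 of them higher (6.78%) and 2 lower (11.5%). At the gene level the block called 5 of 9 (21.3% of all genes), 4 higher (6.61%) and 1 lower (14.7%).

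**Figure D1:**
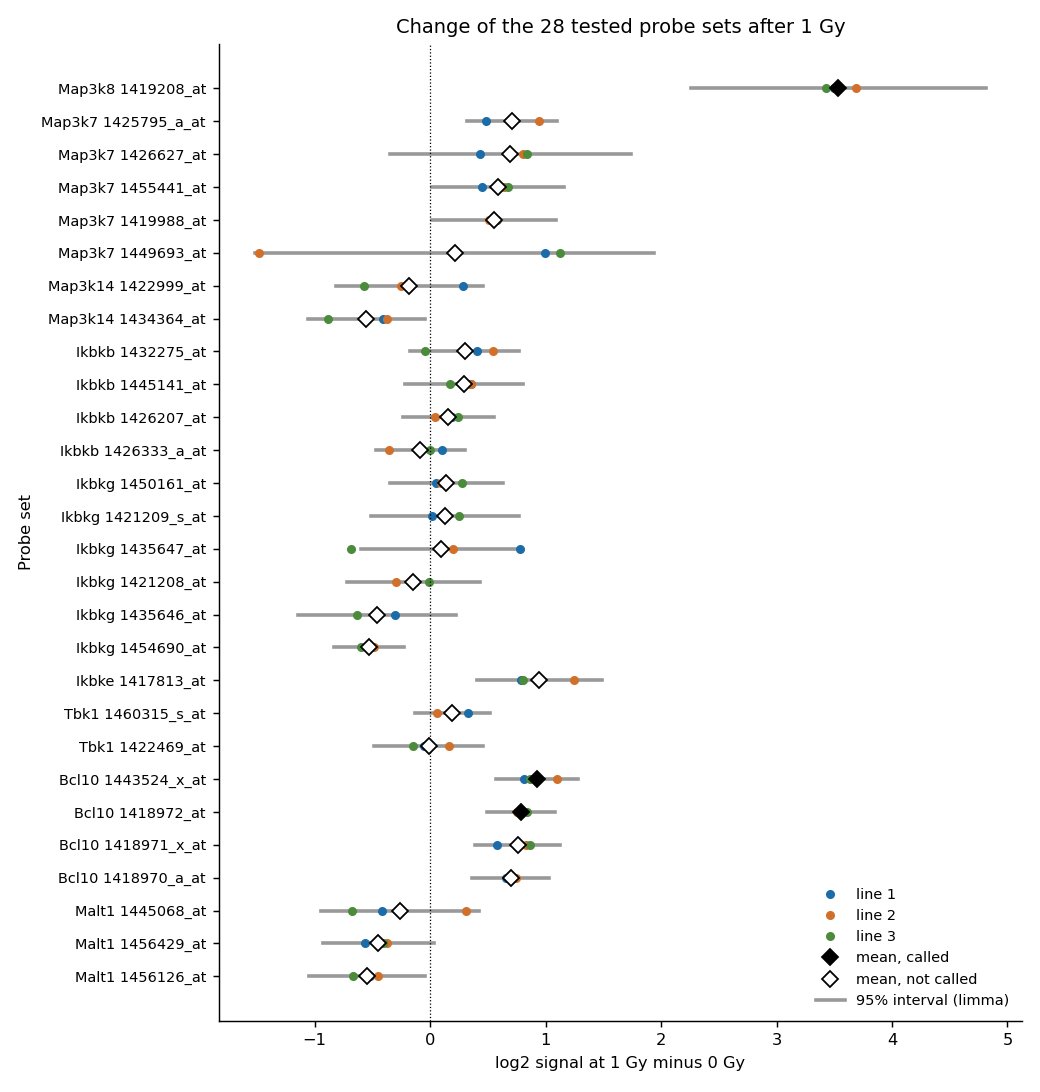
Difference in log2 signal between 1 Gy and 0 Gy (horizontal axis) for the 28 tested probe sets (vertical axis), with the value of each cell line as a coloured point, the mean as a diamond (filled when called) and the 95% limma interval as a bar. Map3k8 lies at 3.54, the 4 Bcl10 sets at 0.70 to 0.92, and the 3 Malt1 sets below 0.

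Map3k8 encodes TPL2 (COT), a kinase that activates MEK and ERK and is held in check by the NF-κB precursor p105. Its single probe set gave mock signals of 219.6, 169 and 496 in lines 1, 2 and 3, while the irradiated signals were 2475, 2173 and 5347. The lowest irradiated array stood well above the highest mock array, and line 3 was the brightest at both doses. The log2 change was 3.54 (standard error 0.52, 95% interval 2.26 to 4.81, adjusted p = 0.0304 from limma), a fold change of 11.6. The lines started apart but changed almost alike, by 11.3-fold in line 1, 12.9-fold in line 2 and 10.8-fold in line 3. Dose accounted for 89.1% of the sum of squares of its log2 signals, line for 10.8% and the remainder for 0.0845%. With the line as a block the adjusted p was 0.00919 and the interval 3.22 to 3.86. In limma fits without the block, the call was lost when any 1 array or any 1 line was left out (adjusted p = 0.0609 to 0.247, log2 change 3.14 to 3.99). It was also lost without the filter on dim probe sets (0.140) and in the methods' test after Benjamini-Hochberg adjustment (0.0847). The fit with the block was not run with arrays or lines left out. Over all probe sets, calls numbered 0 to 94 with an array or line left out and 1 without the filter, against 975.

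**Figure D2:**
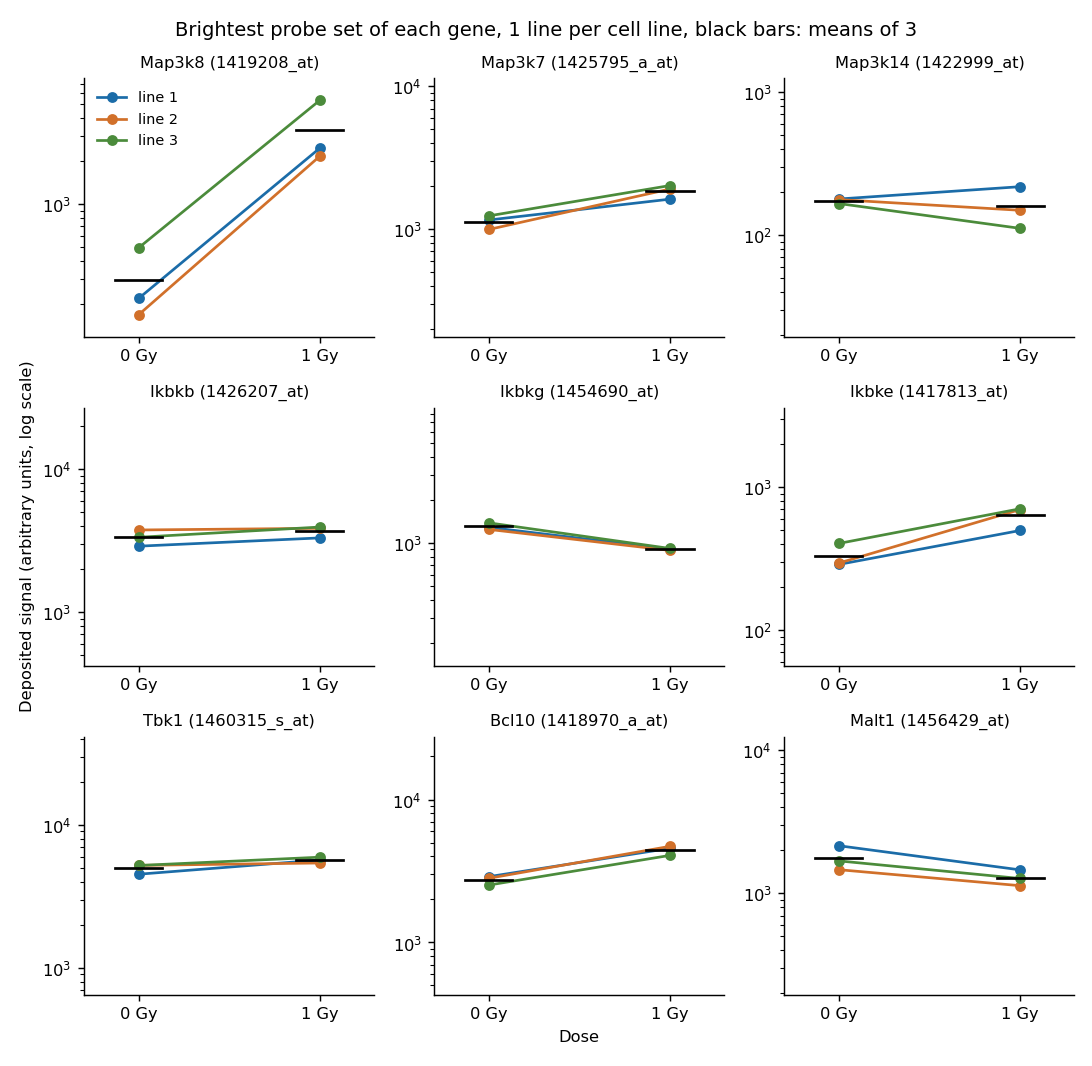
Deposited signals in arbitrary units (vertical axis, logarithmic, the same span in each panel) at 0 and 1 Gy (horizontal axis) for the brightest probe set of each of the 9 genes, with the arrays of a cell line joined in its colour and black bars at the means of 3. Map3k8 rises steeply and nearly in parallel in all 3 lines, the 1 Gy points of Bcl10, Map3k7 and Ikbke lie above the mock points by less, and those of Ikbkg and Malt1 lie below them in all 3.

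No probe set of the other 2 MAP3 kinases of the list passed the test. Map3k7 encodes TAK1, which phosphorylates the activation loop of IKKβ once TAB proteins have bound ubiquitin chains. Its brightest probe set (1425795_a_at) had mock signals of 1161, 997 and 1241 and irradiated signals of 1625, 1913 and 2024. All irradiated arrays lay above all mock arrays. The log2 change of 0.71 (standard error 0.16, 95% interval 0.32 to 1.10) missed the threshold in limma (adjusted p = 0.0670), and fell within it once lines were blocked (0.0365). A further 3 Map3k7 sets (1419988_at, 1426627_at and 1455441_at) had log2 changes of 0.55, 0.69 and 0.59 and each was higher in 3 of 3 lines. These 3 were not called without the block (adjusted p = 0.206, 0.396 and 0.207 from limma) and were called with it (0.0376, 0.0377 and 0.0382). The fifth set, 1449693_at, shares its source sequence with 1419988_at, was dim and went both ways, with mock signals of 54.5, 68.8 and 76.6 and irradiated signals of 109, 24.7 and 167.

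Map3k14 encodes NIK, whose protein is kept low by constant degradation in unstimulated cells. Its brighter set (1422999_at) gave 179, 177 and 166 at 0 Gy and 218, 149 and 112 at 1 Gy, higher in line 1 and lower in the other two. The log2 change was -0.18 (95% interval -0.81 to 0.46, adjusted p = 0.739 from limma). The second set (1434364_at) gave 140.4, 184 and 179 at 0 Gy and 106, 142 and 97.0 at 1 Gy. It was lower in 3 of 3 lines with groups that overlapped, and its log2 change of -0.55 did not pass (adjusted p = 0.186, and 0.0732 with the block).

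Among the subunits of the IKK complex, no probe set was called. Ikbkb encodes IKKβ, the main kinase of the canonical branch. Its brightest set (1426207_at) gave 2892, 3755 and 3338 at 0 Gy and 3304, 3858 and 3937 at 1 Gy. The groups overlapped, and the log2 change of 0.16 had a 95% interval of -0.24 to 0.55 (adjusted p = 0.624 from limma). The interval corresponds to folds of 0.848 to 1.46. The other 3 sets tested had log2 changes of -0.08 to 0.30. Differences between lines held 67.5% of the variation of the brightest set and dose 25.1%.

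Ikbkg encodes NEMO, the subunit that binds ubiquitin chains and through which DNA breaks reach the complex. Its 6 probe sets did not move alike. The brightest (1454690_at) gave 1283, 1241 and 1379.6 at 0 Gy and 905, 885 and 913 at 1 Gy, so that every irradiated array lay below every mock array. The log2 change of -0.53 (standard error 0.12, 95% interval -0.83 to -0.23) was not called by limma (adjusted p = 0.0715), but was with the block (0.0414). A second set (1435646_at) was also lower in 3 of 3 lines, with signals of 571, 675 and 1044 against 463, 494 and 673 (log2 change -0.46, adjusted p = 0.390, and 0.0712 with the block). A set from the same source sequence (1435647_at) gave 382, 540.0 and 633 against 654, 619 and 394, higher in lines 1 and 2 and lower in line 3. The other 3 sets had log2 changes of -0.14 to 0.14, and differences between lines held 83.5% to 92.3% of their variation. Whether the probe sets read different transcripts of the gene was not tested.

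Ikbke and Tbk1 encode IKKε and TBK1, which phosphorylate interferon regulatory factors and resemble each other more than they do the classical IKKs. Ikbke had mock signals of 288, 295 and 404 and irradiated signals of 498, 697 and 706, with no overlap of the groups. Its log2 change was 0.95 (standard error 0.22, 95% interval 0.41 to 1.49), with folds of 1.73, 2.37 and 1.75 in lines 1 to 3. By limma it missed the threshold (adjusted p = 0.0721), but not with the block (0.0235). The brighter Tbk1 set (1460315_s_at) gave 4521, 5213 and 5205 at 0 Gy and 5688, 5418 and 5949 at 1 Gy. These groups did not overlap either, but the log2 change was 0.19 (95% interval -0.13 to 0.52, adjusted p = 0.453 from limma). The second Tbk1 set (1422469_at) changed by -0.01 on the log2 scale (95% interval -0.48 to 0.46), and line held 87.3% of its variation. The difference in change between Ikbke and Tbk1 was not tested.

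BCL10 and MALT1 form, with CARMA proteins, the complex that links antigen receptors to IKK, and MALT1 is its protease. Signals of Bcl10 were higher in all 4 of its probe sets, and in each set all irradiated arrays lay above all mock arrays. The brightest (1418970_a_at) gave 2886, 2811 and 2520.0 at 0 Gy and 4557, 4704 and 4066 at 1 Gy. Its log2 change of 0.70 (standard error 0.14) lay just outside the threshold (adjusted p = 0.0504 from limma, and 0.0244 with the block). The 1418972_at set gave 699, 737 and 715 at 0 Gy and 1197, 1239.6 and 1275 at 1 Gy. It rose by 0.79 on the log2 scale (standard error 0.12, adjusted p = 0.0321 from limma), with folds of 1.71, 1.68 and 1.78 in lines 1 to 3. Dose held 99.3% of its variation. The 1443524_x_at set rose from 683, 536 and 629.8 to 1198, 1146 and 1144 (log2 change 0.92, adjusted p = 0.0341 from limma). The 1418971_x_at set, with a log2 change of 0.76, again lay just outside (adjusted p = 0.0521, and 0.0259 with the block). Of the 4 sets, 3 were designed from the same sequence and so are not independent, and the x in the names of 2 marks probes that may bind other transcripts. In limma fits without the block, both called sets lost their call when any 1 array or line was left out (adjusted p = 0.0861 to 0.254 and 0.0683 to 0.254). Both also lost it without the filter on dim probe sets (0.216 and 0.200), and 1443524_x_at in the methods' test after Benjamini-Hochberg adjustment (0.0531). As for Map3k8, these settings removed most or all calls over the whole array.

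Malt1 had lower means in all 3 of its probe sets, and none passed the test. The brightest (1456429_at) gave 2154, 1464 and 1687 at 0 Gy and 1460.2, 1132 and 1271 at 1 Gy, lower in 3 of 3 lines. The groups barely separated, and the log2 change of -0.45 (95% interval -0.93 to 0.04) had an adjusted p of 0.249 from limma, and of 0.0634 with the block. The 1456126_at set went from 929.9, 693 and 1023 to 649, 507 and 645. By limma its log2 change of -0.55 was called with the block (adjusted p = 0.0430) and not without it (0.189). The dimmest set (1445068_at) was lower in lines 1 and 3 and higher in line 2, with a log2 change of -0.26. In these cells the partners of 1 complex thus lay on opposite sides of 0, Bcl10 in 4 of 4 sets above and Malt1 in 3 of 3 below. The difference between them was not itself tested.

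The promoters of Bcl10, Map3k7 and Ikbke are shown because these genes were higher in all lines and were called with the block. Map3k8, which had the largest change, meets the same rule, but its window was not used here. They are the 250 bases before the gene start, given from 5′ to 3′ along the gene (RefSeq, GRCm38.p6), from chr3:145924012-145924261 on the plus strand for Bcl10, chr4:31963857-31964106 on the plus strand for Map3k7 and chr1:131279564-131279813 on the minus strand for Ikbke. Capitals mark a match to the κB consensus.
Bcl10: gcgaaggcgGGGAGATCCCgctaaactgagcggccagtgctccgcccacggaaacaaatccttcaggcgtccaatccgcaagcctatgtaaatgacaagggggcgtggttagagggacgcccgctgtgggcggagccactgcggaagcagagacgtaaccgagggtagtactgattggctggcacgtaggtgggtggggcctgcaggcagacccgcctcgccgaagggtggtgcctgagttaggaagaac
Map3k7: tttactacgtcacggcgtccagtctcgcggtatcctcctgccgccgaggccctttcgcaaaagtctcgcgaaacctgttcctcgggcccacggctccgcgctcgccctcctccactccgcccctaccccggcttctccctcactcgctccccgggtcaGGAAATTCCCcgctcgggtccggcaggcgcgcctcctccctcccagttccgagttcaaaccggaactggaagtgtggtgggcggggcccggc
Ikbke: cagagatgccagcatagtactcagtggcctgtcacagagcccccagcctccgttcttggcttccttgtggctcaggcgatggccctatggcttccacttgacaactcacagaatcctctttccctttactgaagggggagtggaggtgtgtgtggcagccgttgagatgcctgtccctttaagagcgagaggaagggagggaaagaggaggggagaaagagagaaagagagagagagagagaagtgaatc
Both strands were searched, and a match is a stretch of letters and not a proven binding site. Bcl10 holds 1 stretch, which starts 241 bases before the gene start and matches on both strands, and Map3k7 holds 1 on the minus strand, which starts 92 bases before it. Ikbke holds none in this window. Windows of 7 of the 10 genes were searched, Chuk among them, while those of Map3k8, Malt1 and Ikbkb were not analysed here. They were 10 in all since Ikbkg has 4, and 2 hold the consensus. Over all 32851 promoter windows of the same length, 7.25% hold it.

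The members differed in how much of their variation lay between doses and how much between the independently derived lines. Dose held the largest part of the sum of squares in 15 of the 28 sets, line in 11 and the remainder in 2, and over all probe sets dose came first in 37.7%. The median share between doses was 48.0% in the 28 sets and 28.8% over all, and the median share between lines 37.9% and 44.9%. The 4 Bcl10 sets had 91.3% to 99.3% between doses. For Map3k7, the set 1426627_at shows what the block removes, since its signals of 249, 205 and 102 at 0 Gy became 337, 358 and 183 at 1 Gy. Each line was higher, yet line 3 at 1 Gy lay below lines 1 and 2 at 0 Gy, and 65.0% of the variation was between lines.

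**Figure D3:**
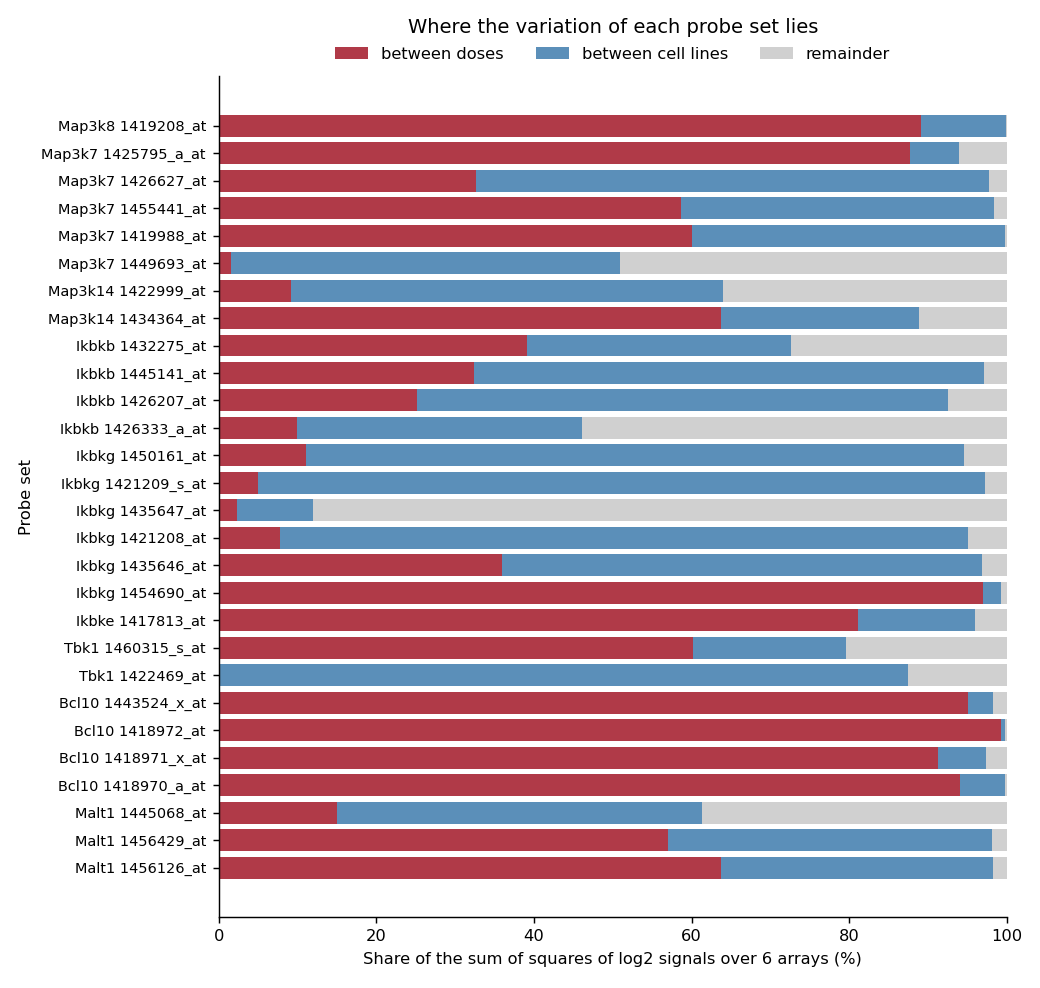
Share of the sum of squares of log2 signals over the 6 arrays (horizontal axis, percent) that lies between doses, between cell lines and in the remainder, for each of the 28 tested probe sets (vertical axis). Dose fills most of the bars of Map3k8 (89.1%), Ikbke (81.1%) and all Bcl10 sets, and line those of the Tbk1 set 1422469_at (87.3%) and of 4 Ikbkg sets.

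Among the genes around the kinases, those for their substrates had the most calls. Of 77 other genes of the pathway, sorted by role, 62 were tested, 8 rose and 3 fell (limma, against 2.11% and 3.20% of all genes), and 13 were called higher and 4 lower with the block (against 6.61% and 14.7% of all genes). Of 9 measured substrates of IKK or TBK1, 6 rose and 0 fell (7 and 0 at an unadjusted p under 0.05, and with the block), and their median log2 change was 1.24 beside -0.11 over all genes. They were Nfkbie (log2 change 2.00), Relb (1.80), Nfkb2 (1.36) and Rela (1.28), with Nfkbib (1.24) and Rel (1.18) named outside the rule of 4 genes a role. All 6 encode NF-κB or IκB proteins. Nfkbia (log2 change 0.66, adjusted p = 0.0731), Foxo3 (0.46, 0.276) and Irf3 (0.07, 0.831) were not called by limma. These too are named outside the rule. These lists were drawn up with results of these samples known, so that their counts are not independent evidence. Rela, the p65 subunit, went from 3392, 3502 and 3379 at 0 Gy to 9318, 7637 and 8040.1 at 1 Gy (adjusted p = 0.0183 from limma). The mock values lay close together, and the groups did not overlap.

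Beside the counts of the other roles stand the shares over all genes, 2.11% called higher and 3.20% lower by limma. With the block these were 6.61% and 14.7%, and 25.0% of all genes had an unadjusted p under 0.05. The adaptors and ubiquitin enzymes that feed the kinases mostly did not pass the test, with 0 of 17 higher and 1 lower (2 and 1 at an unadjusted p under 0.05, and 1 and 1 with the block, limma). The 1 that fell was Traf5, an adaptor of TNF receptors such as CD40, from 674, 976 and 1134 to 197, 214 and 230.4 (log2 change -2.09, adjusted p = 0.0183). Among 7 measured genes of CARMA proteins, protein kinase C and pre-B cell receptor signalling, 1 rose and 1 fell (1 and 2 at an unadjusted p under 0.05, and 1 and 1 with the block). Prkcd, the protein kinase C form linked to apoptosis and B cell tolerance, rose from 9030.3, 8850.5 and 5873 to 22712, 17129 and 18957 (log2 change 1.32, adjusted p = 0.0380). Btk, the kinase downstream of the pre-B cell receptor, fell from 4024, 5090.4 and 5622 to 1999, 1839 and 2259 (log2 change -1.26, adjusted p = 0.0288). Of 8 other MAP3 kinases measured, 0 were called (1 higher and 2 lower at an unadjusted p under 0.05, and 0 and 1 with the block, limma). Of 15 partners and brakes of the kinases, 1 rose, the deubiquitinase gene Tnfaip3 (log2 change 2.52), and 0 fell (4 and 0 at an unadjusted p under 0.05, limma). With the block 3 were called higher, Tnfaip3, Tank (log2 change 1.39, adjusted p = 0.0488) and Tnip1 (0.59, adjusted p = 0.0335). Of 6 genes that link DNA breaks to NEMO, 1 fell, Atm (log2 change -1.62, adjusted p = 0.0424 from limma), and 0 rose (1 and 1 at an unadjusted p under 0.05). Parp1, which encodes a sensor of DNA breaks, went the other way, from 3197, 2482 and 5251 to 8277, 8648 and 14099, higher in 3 of 3 lines with no overlap of the groups. Its log2 change of 1.53 was not called by limma (adjusted p = 0.0690) and was with the block (0.0122). Tank, Tnip1 and Parp1 fall outside the rule for named genes and were chosen after their values were seen. When any 1 array or line was left out, 0 to 4 of the 62 genes were called by limma without the block.

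**Figure D4:**
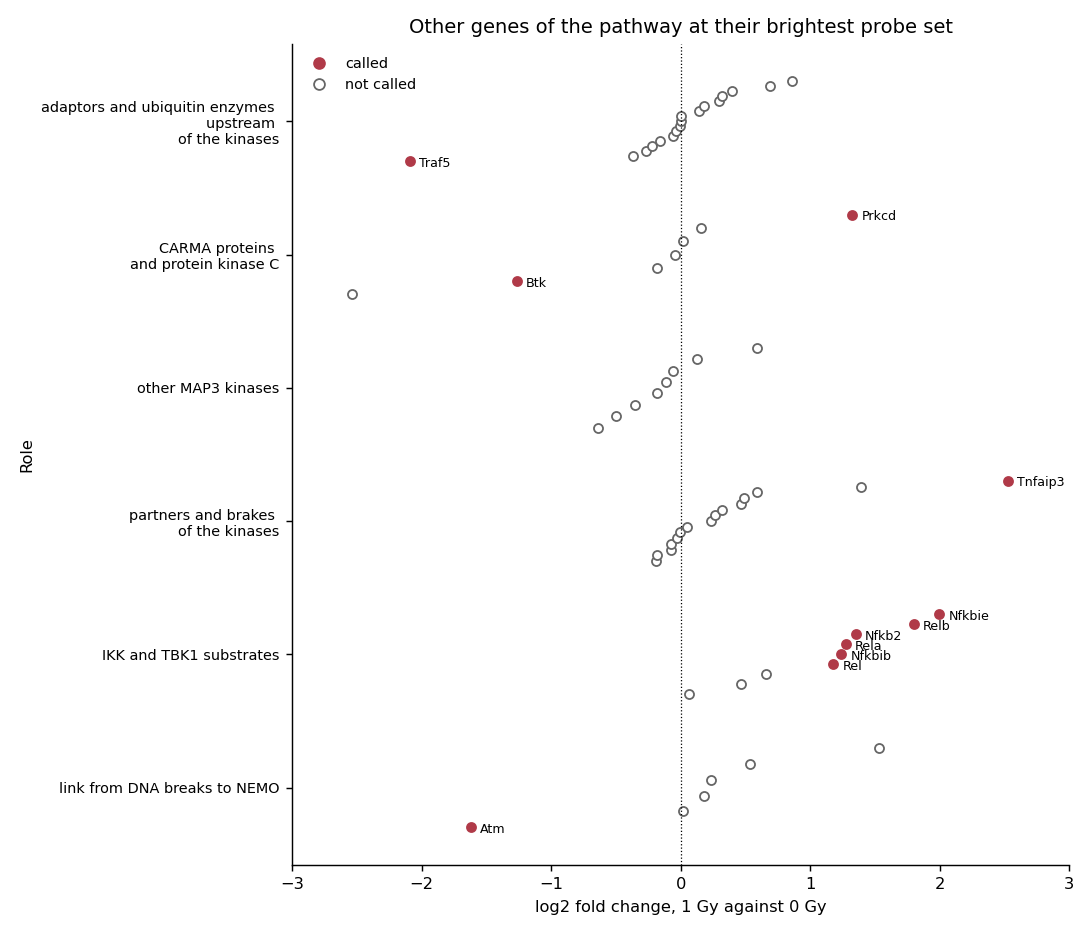
Log2 fold change, 1 Gy against 0 Gy (horizontal axis), of 62 other genes of the pathway at their brightest probe set, sorted by role (vertical axis), with called genes filled and named. The substrates of the kinases hold 6 of the 8 genes that rose, and Traf5, Btk and Atm are the 3 that fell.

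The genes whose signals followed Map3k8 most closely over the 6 arrays were Afap1, Ier5, Nuak1, Grap and Ifngr2, with Pearson correlations of log2 signals of 0.999, 0.997, 0.997, 0.996 and 0.995. Among 9677 genes compared, 22 had a correlation above 0.99. The 6 arrays are 2 doses of 3 lines, so that the measure reads the dose difference and the higher level of line 3 together. All 5 genes were higher in 3 of 3 lines and brightest in line 3 at both doses, as Map3k8 was. This likeness follows from choosing them by the correlation. Afap1 was not called (adjusted p = 0.0616 from limma). The log2 changes of the 5 genes were smaller than that of Map3k8, from 0.71 for Afap1, an actin filament protein, to 1.82 for the kinase gene Nuak1. Grap, an adaptor of lymphocyte signalling, went from 794, 776 and 1297 at 0 Gy to 2335, 2520.3 and 3479.9 at 1 Gy.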

How the data were processed

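Total RNA of 6 samples (2 doses, 3 cell lines) was hybridised to Affymetrix whole mouse genome arrays, 1 per sample. The authors deposited 1 linear intensity (signal) for each probe set. The submitters' processing notes name MAS5, and a mean trimmed by 2% at either end equals 500 on each array. The RMA and quantile steps of the study's own analysis are not part of these values. Scaling to a common mean makes every signal relative to the rest of its array.

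Signals under 1 were set to 1 and log2 values taken. After 64 control probe sets were removed, the 21762 of 45037 whose signal reached 100 on 1 or more arrays were fitted with limma (version 3.58.1, R 4.3.3), dose as the only factor, Benjamini-Hochberg adjustment over all of them. Gene symbols came from the platform annotation (34945 probe sets with 1 symbol, 932 with several and 9160 not listed). A gene was read at its brightest tested probe set (9678 genes). By the series' design text a replicate number stands for a cell line. Deviations from group means correlated at 0.668 to 0.781 within the 3 pairs and -0.495 to -0.053 between different numbers, so that line was also fitted as a block. The deviations of the 3 arrays of a group sum to 0, so the negative values follow in part from the positive ones. Without the block, the spread behind each p-value is that between lines. With it, the spread is the remainder left once line and dose are fitted. A simulation held 100 probe sets with a log2 change of 1 and 100 with a change of 2. The fit without the block recovered 1 and 59 of these, with 0 false calls. The fit with the block recovered 59 and 99, with 11 false calls among 169. The 95% intervals covered the true value in 99.5% of cases without the block and 95.2% with it. The simulated signals were drawn from the fit with the block, with normal noise and the same change in every line. Recovery and coverage with the block were therefore favoured by the setting and do not test that fit on these data. In the simulation the fit without the block thus missed most changes of 1. All other probe sets were unchanged there, and it made 60 calls, against 975 in the data. Its recovery rates therefore do not carry over to the data, where Bcl10 sets with changes of 0.79 and 0.92 were called. A missing call without the block is still no evidence that a transcript did not change. Intervals are 95% limma intervals without the block unless stated.

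The members and lists were chosen with earlier results of these data known. Named are all members, up to 4 called genes with the largest change in each role, and the 5 genes most like Map3k8. Alternatives were the block, other filters, scalings and floors, a variance trend, the methods' test, averaged probe sets, and leaving out arrays or lines.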

Additional observations from a re-analysis of the deposited data

How the results depend on the processing

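No alternative turned the sign of Map3k8, Ikbke, or any Bcl10 or Malt1 probe set, and Map3k8 stayed at a log2 change of 3.14 to 3.99. With the replicate block, 3974 probe sets, 5 member genes and 17 other pathway genes were called, in place of 975, 1 and 11, and quantile normalization with the block gave 3720, 5 and 18. Without a filter the counts were 1, 0 and 0 by limma, with 5391, 5 and 21 at an unadjusted p under 0.05. Signals under 100 set to 100 gave 1476 probe sets and 4 member genes, and a trend in the variance prior 1515 and 5. A common median gave 640 probe sets, and 57.2% of the calls were then upward, against 43.0%. The methods' test at its thresholds gave 2850 probe sets, 4 member genes and 19 pathway genes. With Benjamini-Hochberg adjustment it gave 352 probe sets and 5 pathway genes, and the 1 member gene it called was Ikbkg, lower. Member genes called numbered 2 with a minimum of 100 on 3 or more arrays, with log2 of the signal plus 16 and with the mean of a gene's probe sets. With an array or line left out, limma without the block called 0 to 94 probe sets, 0 member genes (3 to 6 at an unadjusted p under 0.05) and 0 to 4 pathway genes.

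Probe sets near 0 changed sign. The Tbk1 set 1422469_at was at 0.0093 after quantile normalization, with or without the block, and at 0.0362 with a common median, and the Ikbkb set 1426333_a_at at 0.0461 after quantile normalization, with or without the block. With arrays or lines left out, log2 changes ranged from -0.12 to 0.12 for Tbk1 1422469_at, from -0.18 to 0.0503 for Ikbkb 1426333_a_at, from -0.43 to 0.0518 for Map3k14 1422999_at and from -0.35 to 1.06 for Map3k7 1449693_at. For Ikbkg they ranged from -0.31 to 0.0226 (1421208_at), from -0.0511 to 0.35 (1421209_s_at), from -0.24 to 0.49 (1435647_at) and from -0.0085 to 0.29 (1450161_at). The cause of these shifts was not tested.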
